A study of Mus musculus with 77 samples.

Results

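The genes described here encode the subunits of the mitochondrial respiratory chain that are made in the cytosol from nuclear genes. They were chosen by symbol alone: genes beginning with Nduf followed by a, b, c, s or v and a digit, Sdha to Sdhd, and genes beginning with Uqcr, Cox4 to Cox8 or Atp5, leaving out copies named as pseudogenes. This rule gave 81 of the 25266 genes in the count tables, namely 40 for complex I, 4 for complex II, 8 for complex III, 12 for complex IV and 17 for complex V. Ndufa4 was counted with complex I by its name, although it is now known as a subunit of complex IV, and Atp5s is a factor of complex V and not a structural subunit. Of the 81 genes, 75 passed the filter on low counts and were tested (36, 4, 8, 11 and 16 for complexes I to V). The 6 that did not pass were Atp5g2 with 2 counts and Ndufa4l2 with 98 counts over 48 libraries, and Cox6c2, Ndufa11b, Ndufb4c and Ndufs6b with 0 counts.

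Livers came from healthy adult male C57BL/6J mice of 12 to 24 weeks of age kept in light and dark phases of 12 h each, with chow always available. Mice of one line carried the Aco1 tm1.1Mwh allele (Aco1-/-, lacking iron regulatory protein 1) or were Aco1+/+, and mice of the other carried Ireb2 tm1.2Mwh (Ireb2-/-, lacking iron regulatory protein 2) or were Ireb2+/+. The null alleles disrupt the open reading frame but are still transcribed. Each line was sampled at zeitgeber time 5 (ZT5, in the light phase) and ZT12 (at its end). Each of the 8 groups held 3 mice, and each of the 24 mice gave 1 ribosome-protected footprint (RPF) library and 1 total RNA library.

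The respiratory chain moves electrons from NADH and succinate to oxygen and uses the energy to pump protons across the inner mitochondrial membrane. Complex I (NADH dehydrogenase) and complex II (succinate dehydrogenase) take electrons in through flavin and iron-sulfur clusters, complex III passes them to cytochrome c through hemes b and c1 and an iron-sulfur cluster, complex IV reduces oxygen at heme and copper centres, and complex V makes ATP. The IRP proteins bind iron-responsive elements in mRNAs of iron metabolism, and a loss of either is read in liver as a change in the translation or stability of those mRNAs. Complexes I to III need iron-sulfur clusters or heme, so their subunits stand downstream of cellular iron supply.

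Reads in coding sequence numbered 852293 to 3993492 in the RNA libraries (median 2103620) and 2448920 to 13439600 in the RPF libraries (median 6784600). Levels are CPM, the counts of a gene relative to the library's size after upper-quartile scaling. Translation efficiency (TE) is the log2 ratio of RPF to RNA in the same mouse. RPF on Aco1 itself was 74.8, 81.2 and 83.4 CPM in Aco1-/- mice and 397, 347.1 and 486 CPM in Aco1+/+ mice at ZT5, and RPF on Ireb2 was 33.2, 39.7 and 38.7 CPM in Ireb2-/- and 79.3, 78.1 and 66.6 CPM in Ireb2+/+ mice at ZT5, so both checks followed the labels. The summed RNA of the hepatocyte markers was 104559 to 170523 CPM, and that of the Kupffer cell markers 203 to 395 CPM. Ptprc, a marker of leukocytes and Kupffer cells, was listed at 0 in every library, as was Cycs, so a 0 in these tables does not show that a gene is silent. These are bulk livers, in which fewer cells of a type and less RNA per cell cannot be told apart. Libraries of one line and time carry consecutive numbers, so a difference between ZT5 and ZT12 is also one between sets of libraries, and these cannot be told apart.

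A pair of mice stood apart for these genes. In the Aco1 line at ZT5, the mouse numbered 3 was the lowest of its group for RPF in 71 of 75 subunit genes among Aco1+/+ mice and in 68 of 75 among Aco1-/- mice, whereas it was the lowest for 48.2% and 42.6% of all genes. The median subunit RPF was 7.43, 7.58 and 6.88 log2 CPM in the 3 Aco1+/+ mice and 7.55, 7.29 and 6.92 in the 3 Aco1-/- mice at ZT5. The corresponding ZT12 values were 7.04, 7.05 and 7.04 in Aco1+/+ and 7.01, 7.02 and 6.97 in Aco1-/-. The library numbers of these 2 mice are next to each other and are the last of their set. The Aco1+/+ mouse also had the RPF library with the fewest coding reads, 2448920 against 8738063 and 6454816 in its group. The Aco1-/- mouse had 4133729, against 8564178 and 3958828 in its group. Counts of calls, medians and most of the named RPF changes that rest on them are also given without them. The interaction tests and the sizes of the RPF changes of Ndufc1 and Ndufb7 are given with all mice only.

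**Figure D1:**
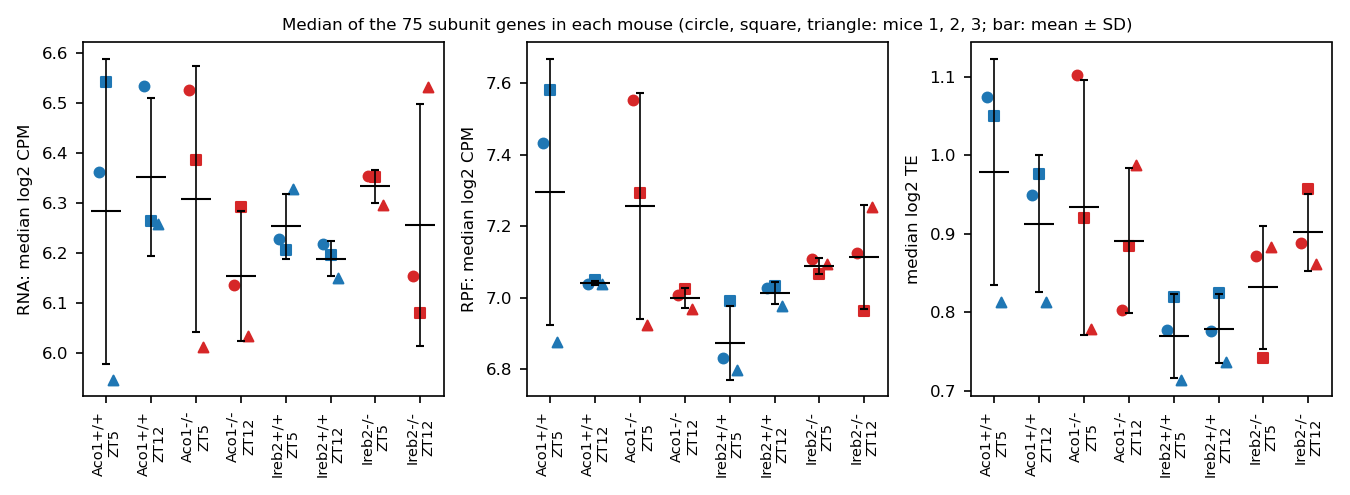
Median level of the 75 tested subunit genes in each mouse, as log2 CPM for RNA and RPF and as log2 TE, by line, genotype and zeitgeber time; each point is 1 of 3 mice and bars are the mean ± SD. In the Aco1 line at ZT5 the mouse numbered 3 of each genotype lies below the other two in RPF (6.88 and 6.92 log2 CPM).

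The subunit genes had a higher TE than most genes, in every mouse. Averaged over 24 mice, 70 of 75 subunits (93.3%) had a log2 TE above 0, against 5906 of 10696 genes tested (55.2%). The median log2 TE was 0.88 for the subunits (quartiles 0.56 and 1.25) and 0.11 for all genes (quartiles −0.55 and 0.62). The subunit median exceeded that of all genes in 24 of 24 mice, by 0.64 to 1.00. By complex, the median log2 TE was 0.83 for complex I, 0.80 for complex II, 0.76 for complex III, 1.10 for complex IV and 0.88 for complex V. Assembly factors, which build the complexes without staying in them, had a median of 0.54 (46 genes), electron carriers and ubiquinone synthesis genes 0.45 (17 genes) and enzymes of the tricarboxylic acid cycle 0.70 (13 genes). The 12 tested subunits made inside mitochondria from mitochondrial DNA had a median of −3.49. Their mRNAs are translated by mitochondrial ribosomes and not by cytosolic ones.

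**Figure D2:**
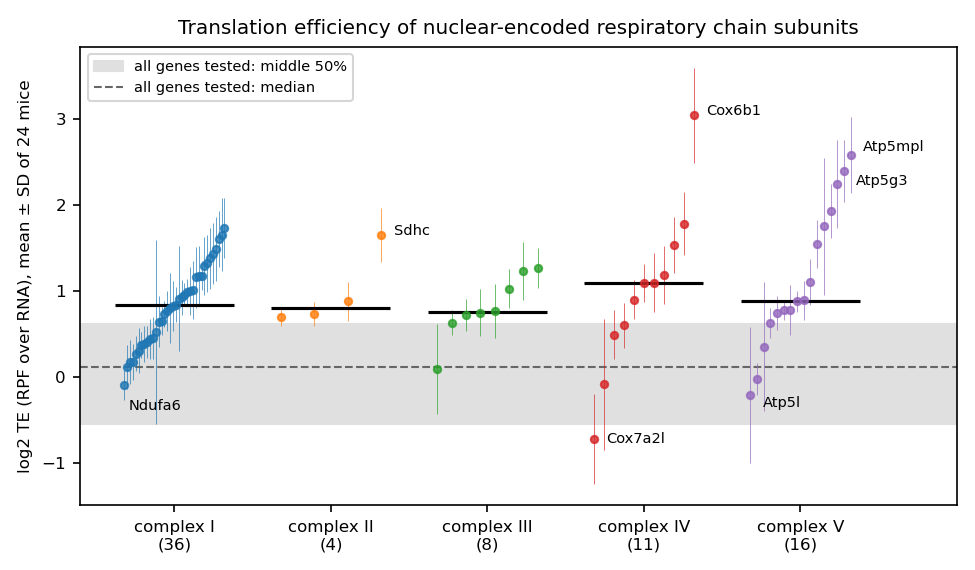
Mean log2 TE (log2 RPF CPM minus log2 RNA CPM) over 24 mice for each of the 75 tested subunit genes, by complex, beside the distribution over all 10696 genes tested. Points are genes with the SD over mice, the grey band is the middle 50% of all genes, and the subunit medians by complex lie between 0.76 and 1.10, above the median of all genes at 0.11.

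Within a complex the subunits were spread widely. The highest TE belonged to Cox6b1, a subunit on the intermembrane-space side of complex IV, with a log2 TE of 3.05 ± 0.55 (SD, n = 24 mice), followed by Atp5mpl, a small membrane protein of complex V, at 2.59 ± 0.44 and Atp5g3, which encodes the proton-carrying c subunit of complex V, at 2.40 ± 0.36. The lowest was Cox7a2l, counted with complex IV by its name, at −0.73 ± 0.53. Next were Atp5l, a membrane subunit of complex V, at −0.21 ± 0.79, and Ndufa6, an accessory subunit of complex I, at −0.10 ± 0.18. The values of Atp5l rest on 677 RNA counts over 24 libraries, and its reads may be shared with 2 copies named in the count tables. Cox7a2l had a median of 27 RNA counts per library. The SD between the 75 subunits was 0.65, and the median SD over mice within a subunit was 0.28. The pattern over subunits was alike in the 8 groups, with Pearson's r between group means of 0.81 to 0.95 across the 75 genes, given as a description since genes share libraries.

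The catalytic subunits showed how members of 1 complex differ. In complex II, Sdhc, a membrane anchor that helps bind heme b, had a log2 TE of 1.65 ± 0.31, while the other anchor Sdhd had 0.88 ± 0.23, the iron-sulfur subunit Sdhb 0.73 ± 0.14 and the flavin subunit Sdha 0.70 ± 0.11 (SD, n = 24). Among the iron-sulfur subunits of complex I, the mean log2 TE was 1.43 for Ndufs7, 1.18 for Ndufs8, 0.96 for Ndufv1, 0.44 for Ndufs1 and 0.11 for Ndufv2. Uqcrfs1, the Rieske iron-sulfur protein of complex III, had 1.27, and Uqcrc1, a core protein of the same complex, 0.72. Cox4i1, a core-associated subunit of complex IV, had 1.10, and the catalytic Atp5a1 and Atp5b of complex V had 0.88 and 0.78. Both genes for the proton-carrying c subunit that could be measured had high values, 2.40 for Atp5g3 and 1.75 for Atp5g1, although Atp5g1 had 226 RNA counts over 24 libraries.

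Loss of IRP1 or IRP2 changed no subunit gene past the threshold. In each of 12 genotype comparisons (2 lines, 2 times, and RNA, RPF and TE), edgeR's quasi-likelihood test with Benjamini-Hochberg adjustment over all genes called 0 of the 75 subunits at an adjusted p of 0.05. Few genes of any kind were called. In the Aco1 line at ZT5 the calls covered 0% of genes for RNA, 0.00935% for RPF and 0.00935% for TE, and at ZT12 0.00935%, 0.299% and 0.0935%. In the Ireb2 line they covered 0.00935%, 0.0654% and 0.00935% at ZT5 and 0.0187%, 0.028% and 0% at ZT12. At an unadjusted p under 0.05, the numbers of subunits in the same order of RNA, RPF and TE were 2, 0 and 1 (Aco1, ZT5), 11, 9 and 9 (Aco1, ZT12), 1, 18 and 14 (Ireb2, ZT5) and 2, 6 and 4 (Ireb2, ZT12). As shares these were 2.67%, 0% and 1.33% of subunits against 3.73%, 2.79% and 2.54% of all genes, and 14.7%, 12.0% and 12.0% against 7.66%, 12.7% and 6.71%, in the Aco1 line. In the Ireb2 line they were 1.33%, 24% and 18.7% against 5.64%, 7.64% and 7.01% at ZT5, and 2.67%, 8.00% and 5.33% against 4.21%, 7.62% and 3.56% at ZT12. DESeq2 called 1 subunit, Ndufv3, for RPF in the Aco1 line at ZT12 and 1, Atp5l, for RPF in the Ireb2 line at ZT5.

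In the Ireb2 line the fold changes of the subunits lay mostly on one side without passing the test. RPF was higher on average in Ireb2-/- than in Ireb2+/+ mice for 63 of 75 subunits at ZT5 and 67 of 75 at ZT12, with a median log2 fold change of 0.15 and 0.12 against 0.03 and 0.02 over all genes. At ZT5 the RPF values of the 3 Ireb2-/- mice all lay above those of the 3 Ireb2+/+ mice for 28 subunits (37.3%, against 9.72% of all genes), and lay below for 0 subunits (against 6.23%). At ZT12 the same was true of 7 subunits (9.33%, against 5.93% of all genes), and 0 lay below (against 4.72%). In RNA the medians were 0.10 at ZT5 and 0.06 at ZT12, and in TE 0.08 and 0.04. The RNA library of the Ireb2+/+ mouse numbered 3 at ZT5 stood apart, with 7626 CPM in mitochondrially encoded subunits against at least 27003 CPM in the other libraries, and with 87.1 CPM for Ndufs7 against 45.0 and 44.2 in its group and 124.6 CPM for Cox6b1 against 40.9 and 47.2. Without that mouse the ZT5 median of the subunits was 0.11 in RPF and −0.0013 in TE. The Ireb2-/- mouse numbered 3 at ZT12 was the highest of its group in the subunit median of RNA and RPF. Without it the ZT12 median log2 fold change of the subunits was 0.022 in RPF and −0.064 in RNA. Beside these values, the summed RNA of hepatocyte markers at ZT5 was 138680 to 154980 CPM in Ireb2-/- and 104559 to 142840 CPM in Ireb2+/+ mice, and that of cholangiocyte markers 24.95 to 51.1 against 12.2 to 19.0 CPM. At ZT12 the hepatocyte markers were at 149991 to 170523 CPM in Ireb2-/- and 132857 to 142167 CPM in Ireb2+/+ mice, without overlap. Their part in the result was not tested.

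The subunits behind these medians differed in depth and size. Atp5l had RPF of 3.35, 4.16 and 2.73 CPM in Ireb2+/+ and 11.8, 7.91 and 14.04 CPM in Ireb2-/- mice at ZT5. The genotypes did not overlap, and the log2 fold change was 1.65 (SE 0.39, adjusted p = 0.341), or 1.67 with an adjusted p of 0.0145 in DESeq2. Sdhd had RPF of 188, 181 and 141 CPM in Ireb2+/+ and 191, 199 and 247 CPM in Ireb2-/- mice at ZT12, a log2 fold change of 0.32 (SE 0.14, adjusted p = 0.609) with the lowest Ireb2-/- mouse just above the highest Ireb2+/+ mouse. Cox7c, a small membrane subunit of complex IV, had a log2 fold change in RPF of 0.77 (SE 0.34, adjusted p = 0.626) at ZT5. Ndufs7, which carries the last iron-sulfur cluster on the way to ubiquinone, had 0.29 (SE 0.11, adjusted p = 0.517) in RPF at ZT12.

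In the Aco1 line at ZT12 the RPF fold changes of the subunits lay on both sides of 0, and none passed the test. Of 75 subunits, 28 had a higher mean in Aco1-/- mice and 47 a lower one, and the median log2 fold change was −0.09 against 0.02 over all genes. The Aco1-/- mice all lay below the Aco1+/+ mice for 29 subunits (38.7%, against 10.6% of all genes) and all above for 13 (17.3%, against 9.83%). Ndufv3, an accessory subunit beside the flavin site of complex I, had RPF of 79.0, 86.0 and 75.5 CPM in Aco1-/- and 159, 125.2 and 118 CPM in Aco1+/+ mice. The genotypes did not overlap, with a log2 fold change of −0.74 (SE 0.18, adjusted p = 0.101 in edgeR and 0.0299 in DESeq2). Uqcrb, which helps form the ubiquinone pocket of complex III, had 19.6, 16.8 and 35.4 CPM against 41.0, 46.0 and 40.0 CPM, a log2 fold change of −0.83 (SE 0.24, adjusted p = 0.170). Uqcr11, a small membrane subunit of complex III, had 45.2, 66.9 and 69.7 CPM against 123.7, 106 and 92.3 CPM, a log2 fold change of −0.83 (SE 0.31, adjusted p = 0.318). Cox7c and Ndufs5 were at 0.65 (SE 0.33) and 0.59 (SE 0.31) in the other direction, with adjusted p of 0.430 and 0.451.

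At ZT5 the Aco1 genotypes lay close together for these genes. The median log2 fold change of Aco1-/- against Aco1+/+ was 0.01 in RNA, −0.03 in RPF and −0.04 in TE, with 43, 27 and 28 of 75 subunits above 0. Erythroid markers summed to 6.68 to 18.9 CPM of RNA in Aco1-/- and 31.7 to 64.8 CPM in Aco1+/+ mice at ZT5, and their part was not tested. Leaving out 1 mouse at a time moved the RPF median between −0.22 and 0.11, the ends being the fits without mouse 1 and without mouse 3 of the Aco1-/- group. These fits kept the same-numbered mouse of the other genotype. With all mice and the replicate number as a block, the RPF median was −0.022. Without both mice numbered 3 the medians were 0.016 in RNA, −0.052 in RPF and −0.046 in TE, with 0 subunits called in each. Ndufb4, an accessory subunit of complex I with 299 RNA counts over 24 libraries, had the largest RNA value among subunits whose genotypes did not overlap, a log2 fold change of 1.54 (SE 0.62, adjusted p = 1).

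The subunits that carry iron-sulfur clusters, flavin or heme b gave no call in any genotype comparison. Over the 4 comparisons of genotype, the log2 fold change in RPF of Ndufs1 ranged from −0.04 to 0.07, that of Ndufs7 from −0.25 to 0.29, that of Ndufs8 from −0.03 to 0.18, that of Ndufv1 from −0.26 to 0.10 and that of Ndufv2 from −0.14 to 0.04. Ndufs1 is the subunit with the most clusters of the electron path of complex I, and its TE ranged from −0.26 to 0.19. Sdhb, the iron-sulfur subunit of complex II, ranged from −0.30 to 0.14 in RPF and Uqcrfs1 from 0.02 to 0.18. Sdha ranged from −0.20 to 0.02, Sdhc from −0.02 to 0.24 and Sdhd from 0.13 to 0.33. The lowest adjusted p among all of these values was 0.418, that of Ndufv1. In complexes IV and V, RPF ranged from −0.31 to 0.12 for Cox4i1, from −0.29 to 0.05 for Atp5a1 and from −0.09 to 0.04 for Atp5b.

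**Figure D3:**
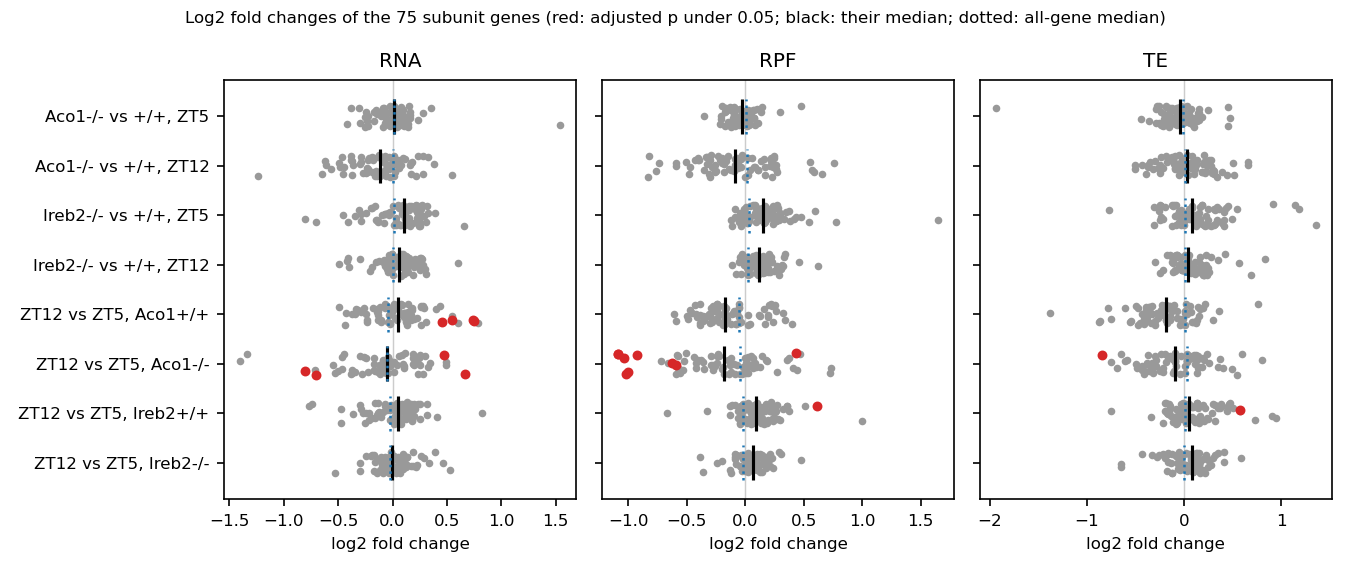
Log2 fold changes of the 75 tested subunit genes in the genotype and time comparisons, for RNA, RPF and TE; each point is 1 gene, black bars are their medians, dotted bars the medians over all genes tested, and red points have an adjusted p under 0.05. Subunits past an adjusted p of 0.05 appear only in the time comparisons, and lie mostly below 0 for RPF in Aco1-/- mice.

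Between ZT5 and ZT12 some subunits did change, and nearly all of them in the Aco1 line. In Aco1-/- mice 9 of 75 subunits changed in RPF, 1 higher and 8 lower at ZT12. Across all genes 12.1% were called (5.31% higher and 6.78% lower), so the share of subunits called, 9 of 75, was near the background. In RNA 4 changed in Aco1-/- mice (2 higher, 2 lower, with 5.15% of all genes called, 2.42% higher and 2.73% lower) and 4 in Aco1+/+ mice (all higher, with 7.05% of all genes called, 3.29% higher and 3.76% lower). Without the 2 mice numbered 3 at ZT5, the RNA calls were 0 higher and 7 lower in Aco1-/- (5.76% of all genes called) and 2 higher and 2 lower in Aco1+/+ mice (7.31%). In TE 1 subunit changed in Aco1-/- mice (0.15% of all genes) and 0 in Aco1+/+ mice (0.0187%), where 21 subunits (28.0%, against 7.49% of all genes) had an unadjusted p under 0.05 and DESeq2 called 2. In RPF 0 subunits were called in Aco1+/+ mice (6.64% of all genes), with 9 (12.0%, against 20.7% of all genes) at an unadjusted p under 0.05 and 0 in DESeq2.

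In the Ireb2 line 1 subunit changed with time, in Ireb2+/+ mice, in RPF (7.53% of all genes called) and in TE (0.533%). In RNA 0 subunits were called in Ireb2+/+ (2.29% of all genes) and 0 in Ireb2-/- mice (2.77% of all genes). In Ireb2-/- mice 0 were also called in RPF (5.73% of all genes) and in TE (0.00935%). At an unadjusted p under 0.05, the RNA counts were 3 subunits (4.00%, against 15.1% of all genes) in Ireb2+/+ and 1 (1.33%, against 14.6%) in Ireb2-/- mice. In Ireb2-/- mice 4 subunits (5.33%, against 19.3%) had such a p in RPF and 3 (4.00%, against 4.52%) in TE. DESeq2 called the same number in each of these comparisons.

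Ndufv3 showed the largest drop in RPF relative to its error. Its RPF was 204, 144.3 and 133.2 CPM at ZT5 and 79.0, 86.0 and 75.5 CPM at ZT12 in Aco1-/- mice. All 3 ZT12 mice lay below all 3 ZT5 mice, and the log2 fold change was −1.005 (SE 0.18, adjusted p = 0.00201, edgeR). Its RNA was 42.0, 34.9 and 36.4 CPM at ZT5 and 25.4, 36.9 and 37.6 CPM at ZT12, so the times overlapped in RNA. Its log2 TE was 2.27, 2.05 and 1.87 at ZT5 and 1.63, 1.22 and 1.00 at ZT12, a change of −0.85 (SE 0.19, adjusted p = 0.0456), the only TE change among subunits in Aco1-/- mice. In Aco1+/+ mice Ndufv3 RPF was 165, 233 and 159.6 CPM at ZT5 and 159, 125.2 and 118 CPM at ZT12, a log2 fold change of −0.48 (SE 0.18, adjusted p = 0.133), which passed without the 2 mice numbered 3 at ZT5 (−0.57, SE 0.17, adjusted p = 0.0389). The change with time was not shown to differ between the genotypes (interaction −0.53, SE 0.26, adjusted p = 0.881).

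Ndufv3 RPF was also the steadiest of the calls. It passed in each of the 6 fits that left out 1 of its 6 mice and under all 5 other settings. The other 8 RPF calls were each lost without the Aco1-/- mouse numbered 1 at ZT5. The TE call of Ndufv3 passed in 1 of the 6 fits and was lost with DESeq2 and with all count columns summed.

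Subunits of complex III were called in both directions. Uqcrb RPF was 60.8, 55.2 and 35.04 CPM at ZT5 and 19.6, 16.8 and 35.4 CPM at ZT12 in Aco1-/- mice, a log2 fold change of −1.09 (SE 0.25, adjusted p = 0.00908), with mouse 3 at ZT12 within the ZT5 range. Uqcrh, the acidic hinge protein near cytochrome c1, had RPF of 260.1, 245 and 150.5 CPM at ZT5 and 93.4, 98.6 and 153 CPM at ZT12, a log2 fold change of −0.93 (SE 0.26, adjusted p = 0.0330). The highest ZT12 mouse was again above the lowest ZT5 mouse. Uqcr11 RPF was 177, 124.2 and 83.4 CPM at ZT5 and 45.2, 66.9 and 69.7 CPM at ZT12 without overlap, a log2 fold change of −1.09 (SE 0.32, adjusted p = 0.0431). The Uqcr11 call was lost without the filter on low counts and with the replicate number as a block, and the Uqcrh call with the block and with all count columns.

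The core protein Uqcrc2 went the other way. Its RPF was 372, 414 and 396 CPM at ZT5 and 563, 516 and 513 CPM at ZT12 in Aco1-/- mice, without overlap and with a log2 fold change of 0.43 (SE 0.12, adjusted p = 0.0251). In Aco1+/+ mice it was 389.5, 389.8 and 382 CPM at ZT5 and 441, 452 and 471 CPM at ZT12. Uqcrc2 was the only subunit called higher in RPF in Aco1-/- mice.

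Ndufa1, a small membrane subunit of complex I, had RPF of 264, 200.1 and 137 CPM at ZT5 and 85.5, 88.9 and 119.95 CPM at ZT12 in Aco1-/- mice, a log2 fold change of −1.03 (SE 0.24, adjusted p = 0.0122). Cox6a1, the form of a complex IV subunit found outside muscle, had 606, 449 and 344 CPM at ZT5 and 298, 306 and 305 CPM at ZT12, a log2 fold change of −0.62 (SE 0.18, adjusted p = 0.0273). Neither gene's times overlapped, and the mouse numbered 3 was the lowest at ZT5 for both. Ndufc1 and Ndufb7, accessory subunits of complex I, had log2 fold changes of −1.02 (SE 0.29, adjusted p = 0.0365) and −0.60 (SE 0.19, adjusted p = 0.0490), and the Ndufb7 call was lost with TMM scaling, with all count columns and with DESeq2. In RPF in Aco1-/- mice the called subunits thus numbered 4 of complex I, 4 of complex III and 1 of complex IV, and 0 of complexes II and V.

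**Figure D4:**
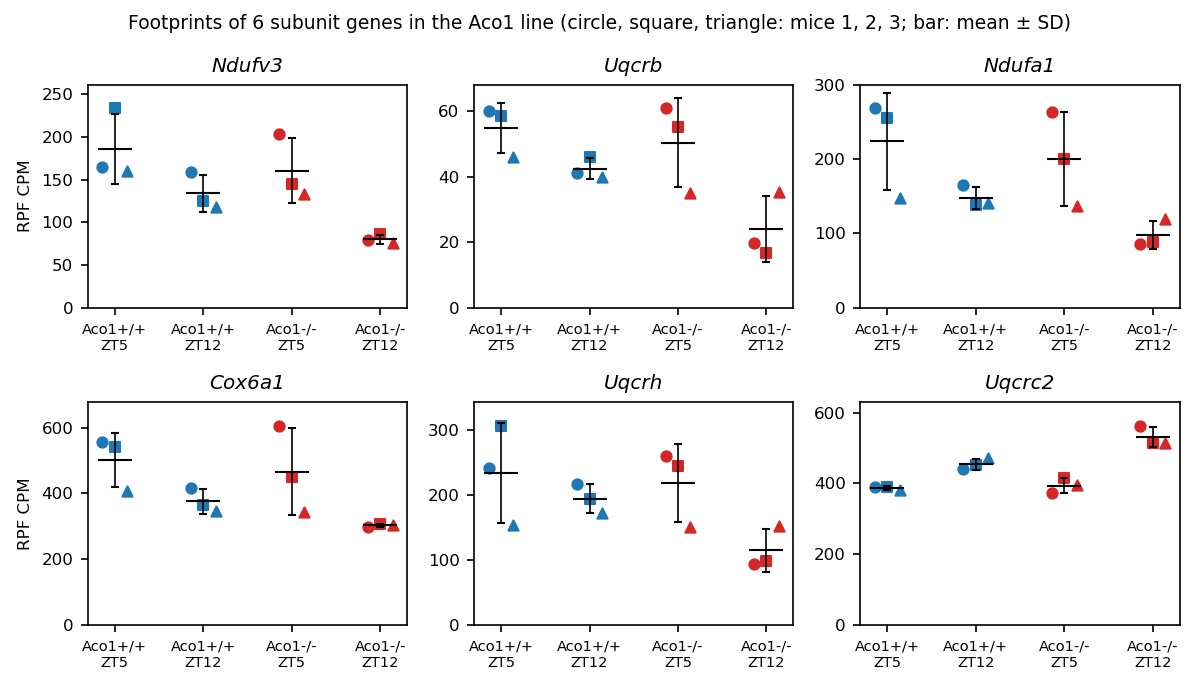
RPF level in CPM (linear axis from 0) of Ndufv3, Uqcrb, Ndufa1, Cox6a1, Uqcrh and Uqcrc2 in each mouse of the Aco1 line, by genotype and time; points are mice, and bars are the mean ± SD of 3. Ndufv3 in Aco1-/- mice lies at 75.5 to 86.0 CPM at ZT12 and at 133.2 to 204 CPM at ZT5, and Uqcrc2 is the gene that is higher at ZT12.

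In RNA, the calls in Aco1+/+ mice were all higher at ZT12. In Aco1+/+ mice Atp5g3 RNA was 133.99, 138 and 119 CPM at ZT5 and 286, 188 and 182 CPM at ZT12, without overlap and with a log2 fold change of 0.74 (SE 0.17, adjusted p = 0.00510). Ndufs1 RNA was 148.05, 150.1 and 167 CPM at ZT5 and 197, 231 and 249.6 CPM at ZT12, a log2 fold change of 0.55 (SE 0.14, adjusted p = 0.0124). Cox5a, a matrix-side subunit of complex IV, had RNA of 60.2, 62.7 and 47.5 CPM at ZT5 and 143, 75.6 and 74.2 CPM at ZT12, a log2 fold change of 0.75 (SE 0.20, adjusted p = 0.0214). None of the 3 overlapped between times, and for Atp5g3 and Cox5a the mouse numbered 1 at ZT12 was well above the rest. Without that mouse the log2 fold change of Cox5a was 0.38 and that of Atp5g3 0.50, and both calls were lost, as they were with all count columns. The Cox5a call was also lost without any one of the ZT5 mice, and the Ndufs1 call without mouse 1 or 2 at ZT5 or without mouse 2 or 3 at ZT12.

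Uqcrfs1 was the subunit called in RNA in both Aco1 genotypes. Its RNA was 103, 124.8 and 113 CPM at ZT5 and 172, 150.5 and 148.04 CPM at ZT12 in Aco1+/+ mice (log2 fold change 0.46, SE 0.14, adjusted p = 0.0385). In Aco1-/- mice it was 113, 119.8 and 118 CPM at ZT5 and 161, 151 and 176 CPM at ZT12 (log2 fold change 0.47, SE 0.14, adjusted p = 0.0400). The times did not overlap in either genotype, and the RPF of Uqcrfs1 was not called in any time comparison (log2 fold changes of 0.06 to 0.22). The Aco1+/+ call was lost without the filter on low counts and in each of the 6 fits that left out a mouse, the Aco1-/- call was kept in 1 of 6, and both were lost without the 2 mice numbered 3 at ZT5.

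The other RNA calls in Aco1-/- mice were Uqcrh, Uqcr11 and Cox5b. Uqcrh RNA was 157, 141 and 100.2 CPM at ZT5 and 70.2, 95.2 and 60.7 CPM at ZT12, without overlap and with a log2 fold change of −0.80 (SE 0.18, adjusted p = 0.00477), so it was lower at ZT12 in RNA and in RPF. Uqcr11 RNA was 59.7, 57.4 and 37.2 CPM at ZT5 and 38.7, 31.4 and 27.5 CPM at ZT12, a log2 fold change of −0.71 (SE 0.20, adjusted p = 0.0313), with mouse 3 at ZT5 inside the ZT12 range. Cox5b, a zinc-binding subunit of complex IV, had 33.6, 42.8 and 27.4 CPM at ZT5 and 65.1, 41.0 and 63.4 CPM at ZT12, a log2 fold change of 0.67 (SE 0.20, adjusted p = 0.0422), with overlap. The Uqcr11 call was lost with DESeq2 and with all count columns, and the Cox5b and Uqcrfs1 calls with all count columns. All 4 RNA calls in Aco1-/- mice, Uqcrfs1 included, were lost without mouse 3 at ZT12. Reads of Uqcrh may be shared with 2 copies named in the count tables.

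**Figure D5:**
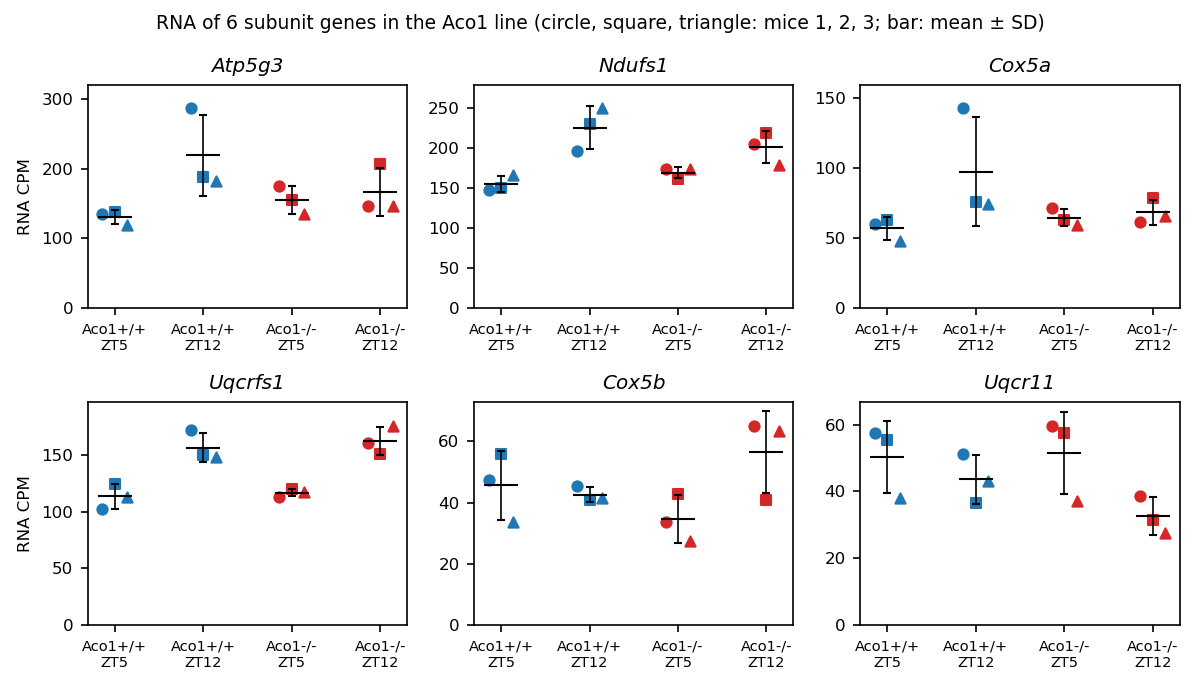
RNA level in CPM (linear axis from 0) of Atp5g3, Ndufs1, Cox5a, Uqcrfs1, Cox5b and Uqcr11 in each mouse of the Aco1 line, by genotype and time; points are mice, and bars are the mean ± SD of 3. Uqcrfs1 is higher at ZT12 in both genotypes, and 1 Aco1+/+ mouse at ZT12 stands above the rest for Atp5g3 (286 CPM) and Cox5a (143 CPM).

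Atp5j2, a membrane subunit of complex V, was the call in the Ireb2 line. Its RPF was 106, 127 and 99.1 CPM at ZT5 and 165, 184 and 159.8 CPM at ZT12 in Ireb2+/+ mice. The times did not overlap, and the log2 fold change was 0.61 (SE 0.16, adjusted p = 0.0256), with 0.58 in TE (SE 0.13, adjusted p = 0.0213) and 0.05 in RNA (adjusted p = 0.906). In Ireb2-/- mice its RPF was 184, 141 and 162 CPM at ZT5 and 138, 139 and 216 CPM at ZT12, with a log2 fold change of 0.02 and overlapping times. The difference between genotypes in the change with time was −0.59 in RPF (SE 0.23, adjusted p = 1) and did not pass. The RPF call was kept in 1 of 6 fits that left out a mouse, the one without mouse 2 at ZT5, and the TE call in 3 of 6 and not with all count columns.

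Interaction tests of genotype with time called 0 of 75 subunits in each of the 6 comparisons (edgeR), with 0.028% of all genes called for TE in the Aco1 line and 0% in the other 5. At an unadjusted p under 0.05 they gave 5 subunits for RNA, 0 for RPF and 6 for TE in the Aco1 line (6.67%, 0% and 8.00%, against 5.87%, 5.52% and 4.75% of all genes). In the Ireb2 line they gave 1, 1 and 5 (1.33%, 1.33% and 6.67%, against 3.86%, 3.98% and 5.25%).

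The medians over subunits are given beside the SD between mice of each mouse's own median level or TE, which is a different quantity. In RPF the median log2 fold change of ZT12 against ZT5 was −0.18 in Aco1+/+, −0.19 in Aco1-/-, 0.09 in Ireb2+/+ and 0.07 in Ireb2-/- mice, with 18, 26, 55 and 55 of 75 subunits above 0 and all-gene medians of −0.06, −0.05, −0.02 and −0.02. The SD between mice of the subunit median, within groups and over both lines, was 0.18 in RPF. The groups with the widest spread were those of the Aco1 line at ZT5. In TE the SD of single groups was 0.044 to 0.079 in the Ireb2 line and 0.087 to 0.16 in the Aco1 line. In RNA the medians were 0.05, −0.05, 0.05 and 0.00 in the same order. Without the 2 mice numbered 3 at ZT5 the RNA median was −0.054 in Aco1+/+ and −0.12 in Aco1-/- mice. In TE the medians with all mice were −0.19, −0.10, 0.06 and 0.08, beside an SD between mice of 0.098 and all-gene medians of 0.01, 0.03, 0.01 and 0.00. Without the 2 mice numbered 3 at ZT5 the TE median was −0.23 in Aco1+/+ and −0.21 in Aco1-/- mice. The mean over mice of each mouse's median TE in Aco1+/+ mice was 0.98 (SD 0.14, n = 3) at ZT5. It was 0.91 (SD 0.087, n = 3) at ZT12. TE was lower at ZT12 for 55 of 75 subunits in Aco1+/+ mice, 30 of 36 in complex I among them. By complex in Aco1+/+ mice, RPF was lower at ZT12 for 31 of 36 subunits of complex I (median −0.24), 5 of 8 of complex III (−0.21), 9 of 11 of complex IV (−0.18) and 11 of 16 of complex V (−0.12), and for 1 of 4 of complex II (0.03).

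The count of subunits that fell in RPF in the Aco1 line depended on the 2 mice numbered 3 at ZT5. Without both, 28 of 75 subunits were called in RPF in Aco1+/+ mice, 27 lower and 1 (Ndufs1) higher, with 13.5% of all genes called, and the median log2 fold change was −0.37. In Aco1-/- mice 34 were called, 32 lower and 2 higher (Ndufs1 and Uqcrc2), with 18.9% of all genes called and a median of −0.33. In Aco1+/+ mice Ndufa1 then had a log2 fold change in RPF of −0.82 (SE 0.15, adjusted p = 0.00218), Cox6a1 −0.55 (SE 0.13, adjusted p = 0.0114) and Uqcr11 −0.69 (SE 0.21, adjusted p = 0.0412), whereas Uqcrb, Uqcrh and Uqcrc2 did not pass (−0.48, −0.49 and 0.22). In Aco1-/- mice the 9 subunits called with all mice passed again, and the RPF values were −1.12 for Ndufv3, −1.25 for Ndufa1, −1.29 for Uqcrb, −1.32 for Uqcr11, −1.14 for Uqcrh, −0.80 for Cox6a1 and 0.43 for Uqcrc2. In RNA, the calls without both mice were Ndufs1 and Atp5g3 (higher) and Uqcrq and Ndufb2 (lower) in Aco1+/+ mice, and the 7 lower subunits in Aco1-/- mice included Uqcrh and Uqcr11. The RNA calls of Cox5a and Cox5b and both of Uqcrfs1 were then lost, as was the TE call of Ndufv3. These mice were left out after their low subunit levels had been seen, and leaving out low ZT5 mice raises the ZT5 mean by construction, so these counts are a range for the result and not a second test. Beside the difference in time, the summed RNA of hepatocyte markers was 121746 to 144921 CPM at ZT5 and 144284 to 170328 CPM at ZT12 in Aco1+/+ mice, and that of cholangiocyte markers 24.6 to 36.5 against 7.65 to 11.3 CPM. In Aco1-/- mice the hepatocyte markers were at 113141 to 147105 CPM at ZT5 and 146251 to 157232 CPM at ZT12, the cholangiocyte markers at 21.7 to 36.6 against 8.14 to 23.7 CPM, and the stellate cell markers at 339 to 394 against 399 to 443 CPM, the last without overlap. The part of these cells in the result was not tested.

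Genes that work beside the subunits were counted in the same fits, in which 7.05% of all genes were called in RNA and 6.64% in RPF in Aco1+/+ mice, 5.15% and 12.1% in Aco1-/- mice, 2.29% and 7.53% in Ireb2+/+ mice and 2.77% and 5.73% in Ireb2-/- mice. Of 46 assembly factors, 5 changed in RNA (3 higher, 2 lower) and 2 in RPF (1 higher, 1 lower) between times in Aco1+/+ mice, and 2 in RNA (1 higher, 1 lower) and 7 in RPF (1 higher, 6 lower) in Aco1-/- mice. In the Ireb2 line 1 changed in RPF in each genotype and 0 in RNA. Ndufaf4, which helps build the membrane part of complex I, was higher at ZT12 in RPF in Aco1+/+ (log2 fold change 1.07, SE 0.19), Aco1-/- (0.58, SE 0.18) and Ireb2-/- mice (0.81, SE 0.18), all with an adjusted p below the threshold. Sco2, which delivers copper to complex IV, was lower in RNA in Aco1+/+ (−1.35, SE 0.25) and Aco1-/- mice (−1.27, SE 0.26). Of the 17 electron carriers and ubiquinone genes, Coq10b was higher and Coq8a lower at ZT12 in RNA and RPF in all 4 genotypes. The log2 fold change in RPF was 1.31 to 1.90 for Coq10b and −1.99 to −1.36 for Coq8a.

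Among the genes of the tricarboxylic acid cycle, Idh3a and Mdh2, which encode dehydrogenases of the cycle, were called in RNA in Aco1+/+ mice, with log2 fold changes of 0.67 (SE 0.18) and 0.46 (SE 0.14) at ZT12. In RPF 1 gene of the 13 was called in Aco1+/+ and 3 in Aco1-/- mice, all higher at ZT12, and 3 in Ireb2-/- mice, with Fh1 and Idh3a higher and Cs, citrate synthase, lower (−0.41). Of the 12 tested subunits encoded by mitochondrial DNA, 2 were called in RNA in Aco1+/+ mice, and 5 in RNA and 7 in RPF in Aco1-/- mice, all higher at ZT12. In the other direction, mt-Atp6 was lower in RPF in Ireb2+/+ mice (−2.54), and in TE mt-Co1 was lower in Aco1+/+ (−0.69) and mt-Nd4l in Aco1-/- mice (−1.84). By genotype, 6 were higher in RPF and 2 in TE (mt-Co1 and mt-Nd5) in Aco1-/- than in Aco1+/+ mice at ZT12, and the same 2 were called in TE for the interaction with time. Over all genes the calls were 0.299% in RPF, 0.0935% in TE and 0.028% for that interaction. By genotype at ZT12, 0 of the nuclear subunits were called in RPF or TE.

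Promoters of 5 of the 9 genes called in RPF in Aco1-/- mice are shown, 3 with a motif match and 2 without, because transcription factors known for respiratory genes (NRF1, ETS-family factors, YY1 and estrogen-related receptors) bind motifs near their starts. The 5 were picked without a rule, so the share of them with a match does not describe the 9 called genes. RefSeq promoter sequences (GRCm38.p6) were on hand for 64 of the 81 subunits. The 150 bases upstream of the start are given 5′ to 3′ on the gene's strand, with motif matches in capitals, read on both strands. They lie at chr4:116075071-116075220 (Uqcrh, minus strand), chr10:80406822-80406971 (Uqcr11, minus), chr5:115348959-115349108 (Cox6a1, minus), chr17:31519965-31520114 (Ndufv3, plus) and chrX:37191239-37191388 (Ndufa1, minus).
Uqcrh: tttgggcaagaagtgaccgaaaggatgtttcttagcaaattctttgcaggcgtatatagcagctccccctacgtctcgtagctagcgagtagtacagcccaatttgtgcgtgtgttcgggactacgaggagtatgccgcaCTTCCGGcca
Uqcr11: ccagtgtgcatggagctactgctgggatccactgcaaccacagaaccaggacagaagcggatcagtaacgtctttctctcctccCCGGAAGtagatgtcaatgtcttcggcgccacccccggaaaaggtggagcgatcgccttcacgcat
Cox6a1: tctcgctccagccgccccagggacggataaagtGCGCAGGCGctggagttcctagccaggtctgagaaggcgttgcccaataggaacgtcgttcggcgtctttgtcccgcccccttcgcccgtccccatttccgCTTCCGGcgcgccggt
Ndufv3: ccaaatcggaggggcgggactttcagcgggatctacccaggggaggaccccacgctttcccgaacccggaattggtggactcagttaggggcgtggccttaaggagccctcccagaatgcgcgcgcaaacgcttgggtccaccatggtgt
Ndufa1: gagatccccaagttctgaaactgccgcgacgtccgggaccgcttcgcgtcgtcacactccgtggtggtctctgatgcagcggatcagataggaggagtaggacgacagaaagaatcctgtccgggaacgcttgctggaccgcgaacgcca
The capitals mark the ETS motif CTTCCGG in Uqcrh and, on the other strand, in Uqcr11, and both the NRF1 motif GCGCANGCG and the ETS motif in Cox6a1. The windows of Ndufv3 and Ndufa1 held none of the motifs searched. For Atp5g3 and Cox5a the start used in the promoter table lies inside the longer annotated gene, and their windows are not shown.

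Over the whole 250 bases before the start, the NRF1 motif was found in 14 of 64 subunits (21.9%) against 8.00% of 17492 genes, and the ETS motif in 12 (18.8%) against 10.2%. The estrogen-related receptor motif TGACCTTG was found in 3 (4.69%) against 1.34%, the E-box CACGTG in 6 (9.38%) against 7.61%, and the YY1 motif AAGATGGC in 1 (1.56%) against 1.77%. Sdha, Sdhd, Cox6a1, Atp5l, Ndufb4 and Ndufs5 were among the subunits with the NRF1 motif, and Atp5g3, Ndufv1, Atp5l and Atp5g1 among those with the E-box. Both the NRF1 and the ETS motif were found upstream of Atp5h, Atp5l, Cox6a1 and Sdhd, and in the Cox6a1 window shown the matches do not overlap. A match is a description of these letters in this window and says nothing about binding in these livers.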

How the data were processed

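The authors trimmed reads with cutadapt 3.5, kept footprints of 24 to 35 nucleotides and RNA fragments of 21 to 60, removed rRNA and tRNA reads with Bowtie2 and aligned the rest with STAR 2.70f (so written) to the mouse genome. The deposited tables hold raw read counts per gene, made by the authors. The counting tool, its use of strand and its handling of reads that match several genes are not given in the sources used here. The column of coding-sequence counts was used, and runs of 1 library were summed. The authors also state upper-quantile scaling in edgeR and TE as RPF over RNA, which was followed.

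Genes passing filterByExpr (minimum count 10, minimum total 15) numbered 10696. Counts were scaled by upper quartiles over 48 libraries and fitted per line with edgeR 4.0.16 (glmQLFit, robust, in R 4.3.3 with limma 3.58.1), the 4 groups of a line sharing 1 spread. RPF and RNA of a line entered 1 model with a term for the mouse for TE. P-values were adjusted by Benjamini-Hochberg across the whole table, a call needed an adjusted p under 0.05, and each SE is the log2 fold change over the root of its F. Levels are log2 CPM with a prior count of 0.5. Alternatives were TMM scaling, no filter, all count columns, DESeq2 1.42.0, the replicate number as a block, and each mouse left out. The fits were tested on simulated data.

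The subunits, the marker and pathway lists and the tests were chosen with earlier results of these data known. Genes named were the catalytic subunits, those with the smallest adjusted p in each direction, or, where none passed, those with the largest fold change among genes whose groups did not overlap, and the extremes of TE. Levels per codon were planned but not computed, since no coding lengths were used here, so levels are not compared between genes. Same-numbered mice of both genotypes deviated together (every correlation over 0.1) for the Aco1 line at ZT5 (RNA 0.15, 0.17 and 0.38, RPF 0.39, 0.12 and 0.62). The main fits held no term for this pairing, and the replicate number as a block changed no call there. In none of the other 7 comparisons was every correlation over 0.1. No column of other samples was found in the tables. Genes with 0 counts, such as Cycs and mt-Co2 in all 48 libraries, were left as they are. Results of some genes are not reported here.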

Additional observations from a re-analysis of the deposited data

How the results depend on the processing

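Counts of called subunits moved by more than 1.5 times in 14 cases under another setting and in 32 without 1 mouse, and no called value changed its direction. With DESeq2, 1 subunit was called for RPF by Ireb2 genotype at ZT5 and 1 by Aco1 genotype at ZT12. With all count columns, the TE median by Ireb2 genotype at ZT5 was −0.036 and 2 subunits were called in RNA with time in Aco1+/+ mice. For TE with time in Aco1+/+ mice, 1 subunit was called with TMM, 2 without a filter, 1 with all columns, 2 with DESeq2 and 2 without both Aco1 mice numbered 3 at ZT5. For TE in Aco1-/- mice, 2 were called without a filter, 0 with DESeq2 and 0 without both mice, with a median of −0.21. Without both mice, a setting chosen after seeing the data, 7 were called in RNA in Aco1-/- mice and 34 in RPF, and 28 in RPF in Aco1+/+ mice (median −0.37). The cause was not tested. The replicate number as a block changed RPF calls in Aco1-/- mice with time to 10 and RNA calls to 6, and lost the RPF calls of Uqcr11 and Uqcrh, and the samples share only a number outside the Aco1 line at ZT5.

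Leaving out 1 mouse moved the calls with time in Aco1-/- mice between 1 and 19 in RPF (without mouse 1 and without mouse 3 at ZT5), 0 and 6 in RNA and 0 and 2 in TE. In Aco1+/+ mice they ranged from 1 to 4 in RNA, 0 to 7 in RPF and 0 to 2 in TE, in Ireb2+/+ mice from 0 to 1 in RPF and 0 to 3 in TE, and in Ireb2-/- mice from 0 to 1 in RPF. The Aco1 genotype at ZT12 gave 0 to 1 in RNA, RPF and TE. Medians ranged from −0.22 to 0.11 (RPF) and −0.15 to 0.018 (TE) by Aco1 genotype at ZT5, from −0.37 to −0.031 (RPF) in Aco1+/+ with time and from −0.21 to −0.019 (TE) in Aco1-/- with time. Depth limits Ndufb4, Cox7c, Atp5l, Atp5g1 and Atp5s, whose RNA counts over 24 libraries were 299, 498, 677, 226 and 217. It also limits Cox7a2l, with a median of 27 RNA and 42.5 RPF counts per library.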
